A study of Bos taurus with 6 samples.

Results

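The genes described here are 10 globin and heme genes of cultured bovine granulosa cells (GC): the globins HBA, HBB, HBG, HBM, HBQ1 and CYGB, and the heme genes HEBP1, ALAS1, HMOX1 and BLVRB. They were taken from the deposited table by gene symbol. Each symbol had 1 transcript cluster, as the array's measure of a gene is termed, so that 10 of the 26773 transcript clusters of the table belong to this set. The list was selected on signals of the density comparison itself, the rise of HBA in particular. The differences between the densities are therefore given as a description and without p-values.

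RNA came from 6 GC cultures, of which 3 had been plated at normal and 3 at high density, and each culture was hybridized to 1 Bovine Gene 1.0 ST Array. All cultures received the same treatment. Cells were kept for 9 days without serum in alpha-MEM with FSH, IGF-1 and androstenedione, and the medium also contained insulin, transferrin and selenite. The starting cells were pools from the small to medium follicles of many abattoir ovaries, with the cycle stage of the cows not defined, so a culture is not a single animal. The labels number the cultures but do not say how separate they were, and any p-value measures the spread between these cultures.

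Globins are small heme proteins that bind oxygen. Hemoglobin of red blood cells is built from pairs of alpha-type and beta-type chains, whose genes lie in separate clusters and are switched on together during red cell maturation, while cytoglobin is found in many tissues. Heme is made from glycine and succinyl-CoA by a chain of enzymes that starts with an aminolevulinate synthase, ALAS1 in most tissues and ALAS2 in red cell precursors. Heme oxygenases open the ring to biliverdin, and biliverdin reductases turn this into bilirubin. In the ovary heme is also the prosthetic group of the cytochrome P450 enzymes of steroid synthesis.

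Values are log2 signals made by the authors with the RMA procedure. The background level used here is the 95th percentile of the 82 reporter control rows, a log2 signal of 4.62, and 48.8% of the transcript clusters had a group mean above it. Differences are log2 signals at high density minus those at normal density, with the standard error (SE) of the limma fit. A transcript cluster was termed called when its FC exceeded 1.5 in size, which is a log2 difference of 0.58, and its p-value and FDR were below 0.05. By this rule 7.49% of all transcript clusters were called, 3.97% up and 3.51% down, and the cultures of both densities did not overlap in 37.3%. Of the granulosa cell markers 12 of 12 had a group mean above the background level, among them FOXL2, FSHR and INHA. None of the 12 leukocyte markers did, 1 of 8 endothelial markers did (VWF), and 4 of 7 theca cell markers did, without CYP17A1. limma called 6 granulosa cell markers down and 1 up, and of the theca cell markers INSL3 up and LHCGR, with both means below the background level, down. It called 0 leukocyte and 0 endothelial markers, with an unadjusted p below 0.05 for 2 and 3 of them, and so did the methods' t-test. The part of these markers in the results below was not tested. In bulk RNA, fewer cells of a type and less RNA per cell cannot be told apart.

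Of the 10 genes, 3 were called, all with the higher signal at high density: HBA, HEBP1 and HBM. The background share is 7.49%, and since the genes were listed with this contrast known, nothing is read from the count. ALAS1 and BLVRB passed the FDR threshold, as did 19.1% of all transcript clusters, but with lower signals at high density and an FC below the threshold. ALAS1 passed it in all alternative fits at that FDR, whereas BLVRB did not with the methods' t-test, with the replicate block, or without normal density replicate 1 or 2 or high density replicate 3. Both genes were also listed with the contrast known, so these passes describe the fits and are no evidence for the genes. In 7 of the 10 genes the cultures of one density lay apart from those of the other, against 37.3% of all transcript clusters. The median log2 difference of the 10 genes was 0.22 and that of all transcript clusters 0.02. For 4 genes, HBB, HBG, HBM and CYGB, both group means were below the background level, so that only 6 genes were measured above it.

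**Figure D1:**
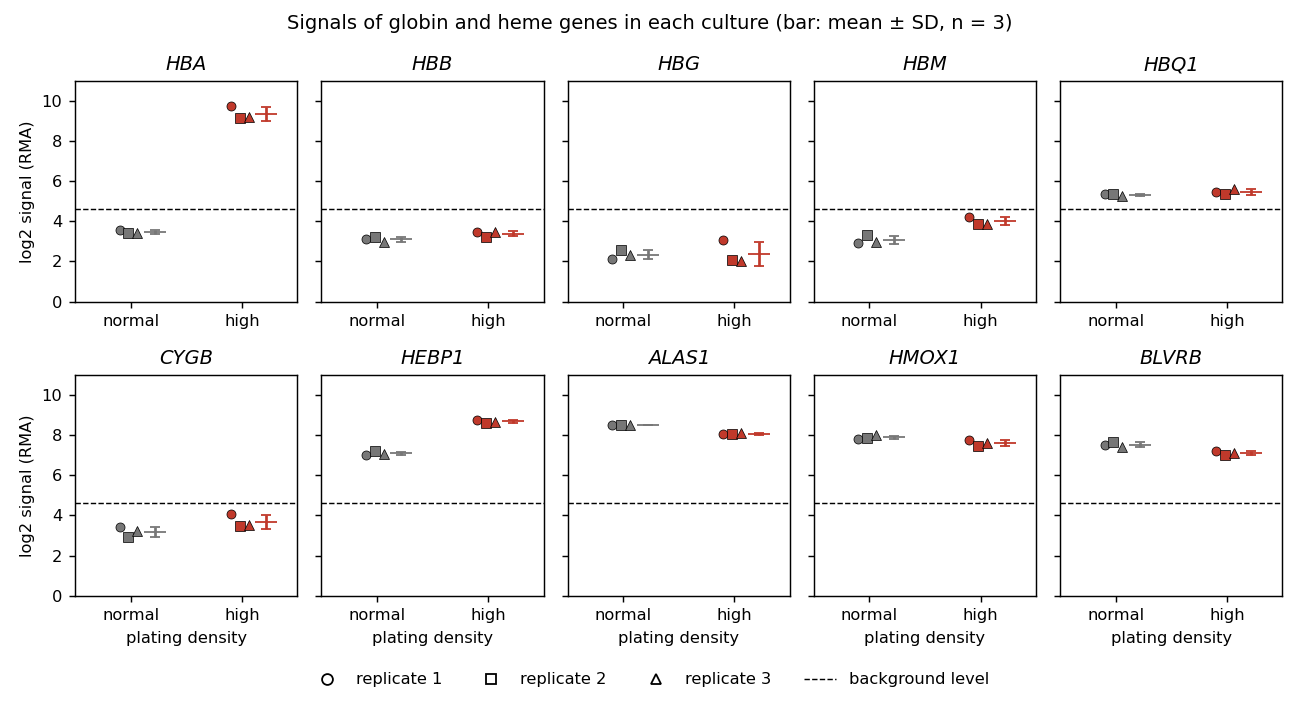
Log2 signal (vertical axis) of each gene in the 3 normal density (grey) and 3 high density (red) cultures, with the group mean ± SD beside the points and the background level of 4.62 as a dashed line. HBA moves from below the line to 9.37, HEBP1 rises from 7.10 to 8.69, and ALAS1, HMOX1 and BLVRB lie lower at high density.

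HBA encodes the alpha chain of adult hemoglobin. Its log2 signals (transcript cluster 12812382) were 3.57, 3.42 and 3.44 in the normal density cultures and 9.78, 9.16 and 9.18 in the high density cultures. All normal density signals lay below the background level and all high density signals far above it. Group means were 3.48 ± 0.08 and 9.37 ± 0.35 (SD, n = 3), and the log2 difference was 5.90 (SE 0.17). This is an FC of 59.6 on the measured signals. Since the normal density signal was not above the background level, the rise was at least 27.0-fold when the high density mean is set against that level. The SD at high density was larger than the median SD of all transcript clusters, 0.13, because of replicate 1. With single cultures left out the log2 difference was between 5.69 and 6.0.

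The other alpha-type globins differed from each other. HBZ, which encodes the embryonic zeta chain and is not 1 of the 10 listed genes, had log2 signals of 3.72, 3.88 and 3.82 at normal density and 5.67, 5.16 and 5.19 at high density. The measured log2 difference was 1.54 (SE 0.14, adjusted p = 4.21e-04 by limma). Since the normal density signals lay below the background level, the rise of HBZ was at least 1.65-fold when its high density mean of 5.34 is set against that level. The mu globin gene HBM (12810979) had log2 signals of 2.90, 3.31 and 2.98 at normal density and 4.23, 3.89 and 3.89 at high density. Its groups lay 0.58 apart and its log2 difference was 0.94 (SE 0.14), but no culture reached the background level. HBQ1 (12814323), the theta globin gene, had log2 signals between 5.25 and 5.35 at normal density and between 5.35 and 5.61 at high density. These groups overlapped slightly, and the log2 difference was 0.15 (SE 0.09), although all cultures were above the background level.

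In the RefSeq annotation of the ARS-UCD2.0 assembly the order of the alpha cluster is HBZ, HBM, HBA, HBA1 and HBQ1. HBA1, a duplicate of the alpha gene beside HBA, had no transcript cluster with its symbol. The array's probe sequences were not used here. Whether the HBA signal includes HBA1 transcripts, and whether probes of HBZ or HBM take up signal from HBA transcripts, was not tested.

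Genes around the alpha cluster were described in RefSeq order from POLR3K to AXIN1, a stretch of 16 protein-coding genes of which 15 were measured. Of the 11 that are not globins, 1 was called. SNRNP25, which encodes a protein of the minor spliceosome, had log2 signals of 6.99, 7.00 and 6.80 at normal density and 7.76, 7.74 and 7.68 at high density. Its log2 difference was 0.80 (SE 0.08, adjusted p = 6.40e-04 by limma). The remaining 10 had log2 differences between −0.04 and 0.28, and in each of them the groups overlapped. These include NPRL3, the gene next to HBZ whose introns hold the known alpha globin enhancers, with a log2 difference of 0.16 (SE 0.09, adjusted p = 0.281 by limma), and LUC7L on the other side of the cluster with 0.02 (SE 0.09, adjusted p = 0.894 by limma). POLR3K, RHBDF1, MPG, ITFG3, RGS11, ARHGDIG, PDIA2 and AXIN1 make up the rest.

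**Figure D2:**
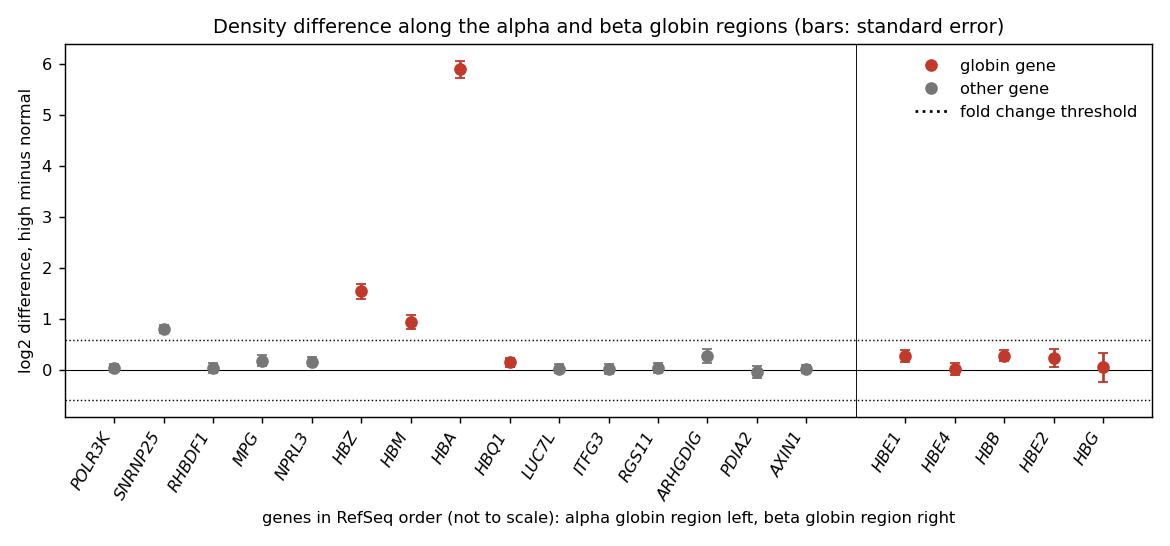
Log2 difference, high minus normal density (vertical axis), with its standard error for the measured genes of the alpha globin region (left) and of the beta globin cluster (right), in RefSeq order and not to scale. Globin genes are red, other genes grey, and dotted lines mark the FC threshold, which HBZ, HBM, HBA and SNRNP25 exceed.

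The beta-type globins were low at both densities. HBB (12726611), the adult beta chain gene, had log2 signals of 3.12, 3.23 and 2.97 at normal density and 3.45, 3.23 and 3.48 at high density. These groups overlapped, and the log2 difference was 0.28 (SE 0.10). HBG (12727546), annotated as a gamma globin gene, had log2 signals of 2.14, 2.58 and 2.32 at normal density and 3.09, 2.10 and 2.0 at high density. High density replicate 1 alone lay above the normal density cultures. The log2 difference of HBG was 0.05 (SE 0.28), between −0.30 without high density replicate 1 and 0.25 at the highest with a single culture left out.

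Beside these, the epsilon genes HBE1, HBE4 and HBE2 of the same cluster were measured. All 5 beta-type genes stayed below the background level in every culture, with log2 signals between 2.0 and 4.10 and log2 differences between 0.01 and 0.28. Of these genes 0 were called by limma, 1 had an unadjusted p below 0.05, and the methods' t-test called 0.

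CYGB (12762598), the cytoglobin gene, had log2 signals of 3.43, 2.91 and 3.22 at normal density and 4.07, 3.46 and 3.50 at high density. The groups were only 0.03 apart and all cultures lay below the background level. The log2 difference was 0.49 (SE 0.19), and it was 0.29 without high density replicate 1. Of the further globins measured, NGB, the neuroglobin gene, had a log2 difference of 0.22 (adjusted p = 0.0864 by limma) and MB, the myoglobin gene, of 0.11 (adjusted p = 0.636 by limma).

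The globin signals were set beside markers of red blood cells and their precursors. The list of these markers includes HBB, 1 of the 10 genes. Of 21 listed erythroid markers 19 were measured, by 20 transcript clusters, and 16 of these had both group means at or below the background level. limma called 0 of the 20 at the thresholds, 3 had an unadjusted p below 0.05, and the methods' t-test called 0. Without HBB, 15 of 19 transcript clusters had both means at or below the background level and 2 had an unadjusted p below 0.05. The log2 difference was positive in 17 of the 20, HBB included, and negative in 3. The median log2 difference of the list was 0.09, or 0.08 without HBB, beside 0.02 for all transcript clusters. Summed over the list on the linear scale, the signals were between 331 and 336 at normal density and between 342 and 382 at high density. These sums include HBB and the other transcript clusters at or below the background level, so they do not show the level of those 16.

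Most markers that define red cells were near the floor of the array. ALAS2, the red cell form of the first heme enzyme, had a log2 difference of 0.08 (SE 0.12, adjusted p = 0.704 by limma) with overlapping groups. AHSP, which encodes the chaperone of free alpha chains, had mean log2 signals of 3.04 at both densities. Group means of SLC4A1, the gene of the band 3 anion exchanger, were 3.05 at normal and 2.96 at high density. GATA1 and KLF1, transcription factors of red cell precursors, had means of 3.33 and 3.40, and of 3.63 and 3.86. RHAG, encoding the Rh-associated glycoprotein, passed the FDR threshold with a log2 difference of 0.42 (adjusted p = 0.0182 by limma), but its signals reached at most 2.96. It did not pass with the methods' t-test, with the replicate block, or without normal density replicate 1 or 2 or high density replicate 1. The transcript clusters above the background level were those of ERMAP, EPOR, GYPC and NFE2, and none of these passed the FDR threshold.

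**Figure D3:**
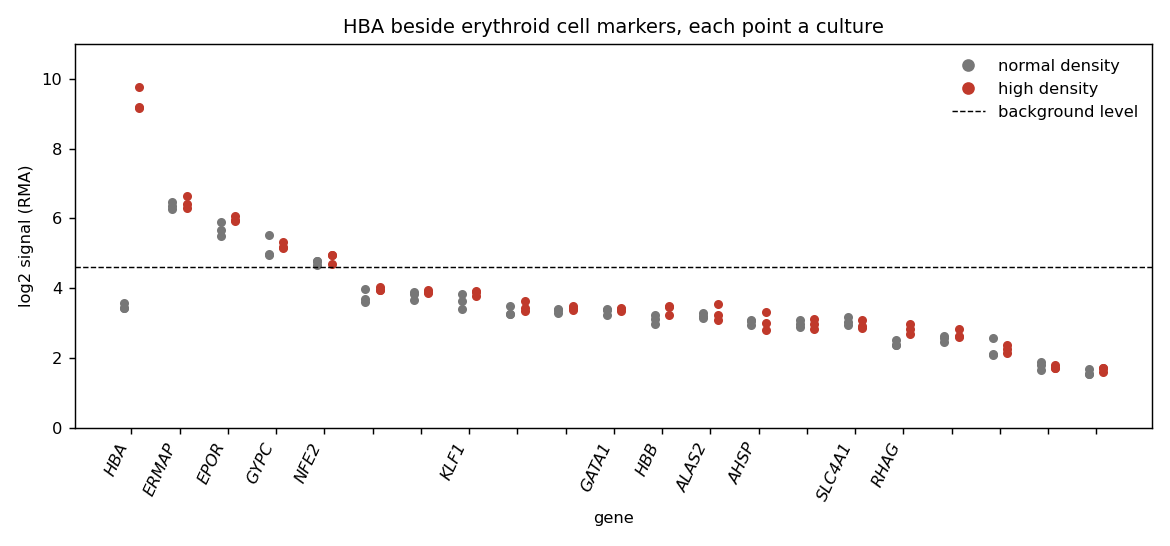
Log2 signal (vertical axis) of HBA and of the erythroid marker transcript clusters in each normal density (grey) and high density (red) culture, ordered by the high density mean after HBA, with the background level of 4.62 as a dashed line. HBA at high density is separated from all other points, and 16 of the 20 marker transcript clusters have both group means under the line. Genes named in the text, except TAL1, are labelled.

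HEBP1 encodes a cytosolic protein that binds heme and other tetrapyrroles. Its log2 signals (12860935) were 7.03, 7.20 and 7.07 at normal density and 8.77, 8.62 and 8.68 at high density. The groups were 1.42 apart, with small SD of 0.09 and 0.08 (n = 3). The log2 difference was 1.59 (SE 0.08), an FC of 3.00, and it was between 1.55 and 1.64 with single cultures left out. HEBP1 was thus the gene with the largest difference among those of the 10 that were above the background level at both densities.

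The list of 14 genes of heme transport and binding includes HEBP1, which was listed with the contrast known. Of the 14, limma called 1, HEBP1, and the median log2 difference was 0.10. Without HEBP1, 0 of 13 were called and the median was 0.09. Of these 13, 7 had an unadjusted p below 0.05, and 2 passed the FDR threshold at a smaller FC. HEBP2, the relative of HEBP1, had a log2 difference of −0.16 (adjusted p = 0.146 by limma). SLC48A1, a heme transporter of endolysosomes, had the lowest value of the list, −0.51 (SE 0.07, adjusted p = 0.00233 by limma), with groups that did not overlap but an FC below the threshold. FLVCR1, a heme exporter of the plasma membrane, had −0.13 (adjusted p = 0.237 by limma). HPX and HP, which encode the plasma proteins hemopexin and haptoglobin, were below the background level at both densities.

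ALAS1 encodes the first and rate-limiting enzyme of heme synthesis in most tissues. Its log2 signals (12799840) were 8.50, 8.50 and 8.53 at normal density and 8.06, 8.05 and 8.14 at high density. The groups were separated by 0.36, with SD of 0.02 and 0.05 (n = 3). The log2 difference of −0.43 (SE 0.07) stayed below the FC threshold, and it was between −0.46 and −0.41 with single cultures left out.

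Of the 12 listed genes of heme synthesis, ALAS1 included, 1 was called and 2 more, ALAS1 and FECH, passed the FDR threshold at a smaller FC. The log2 difference was negative in 9 of the 12, and in 4 of these 9 the groups overlapped. The median log2 difference of the list was −0.12. The called gene was CPOX, coproporphyrinogen oxidase, with log2 signals of 6.63, 6.62 and 6.71 at normal density and 5.98, 6.07 and 6.08 at high density. It fell by 0.61 on the log2 scale (SE 0.07, adjusted p = 0.00109 by limma), and the call was lost with a second quantile normalization or without normal density replicate 3 or high density replicate 1, where the log2 difference was between −0.58 and −0.57.

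FECH, which inserts the iron, had a log2 difference of −0.41 (SE 0.07, adjusted p = 0.00841 by limma), and its groups did not overlap. ALAD, the enzyme of the second step, had overlapping groups and a log2 difference of −0.03 (adjusted p = 0.821 by limma). PPOX, the protoporphyrinogen oxidase, had the highest value of the list with 0.38 (adjusted p = 0.0648 by limma).

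HMOX1 encodes the inducible heme oxygenase. Its log2 signals (12859274) were 7.83, 7.87 and 7.99 at normal density and 7.75, 7.47 and 7.63 at high density. The groups were only 0.07 apart. The log2 difference was −0.28 (SE 0.09), and it was between −0.35 and −0.20 with single cultures left out. HMOX2, the constitutive form, had a log2 difference of −0.18 (adjusted p = 0.180 by limma).

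BLVRB encodes biliverdin reductase B, which also reduces flavins. Its log2 signals (12755702) were 7.51, 7.67 and 7.43 at normal density and 7.21, 6.99 and 7.12 at high density, with 0.22 between the groups. The log2 difference was −0.43 (SE 0.09). BLVRA, the main biliverdin reductase of adult tissues, had a log2 difference of −0.46 (SE 0.07, adjusted p = 0.00366 by limma), also below the FC threshold. Of the 5 listed genes of heme breakdown, HMOX1 and BLVRB included, 4 had a negative log2 difference. limma called 0 of the 5, and the methods' t-test called 0 as well. An unadjusted p below 0.05 was found for 4 of the list, or 2 without HMOX1 and BLVRB. These are not the same 4 genes: they include POR, the only gene of the list with a positive log2 difference (0.19), and not HMOX2.

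Among 21 listed regulators of globin and heme genes 1 was called. LMO2, which encodes a bridging protein in the GATA1 and TAL1 complex of blood cell precursors, rose by 0.88 on the log2 scale (SE 0.08, adjusted p = 3.16e-04 by limma), from a mean of 6.92 to 7.79. Its partner LDB1 had a log2 difference of −0.24 (adjusted p = 0.0832 by limma). GATA1 and TAL1 were below the background level at both densities, with means of 3.33 and 3.40, and of 3.76 and 3.98. NFE2L2 (NRF2), an activator of HMOX1, had −0.53 (SE 0.07, adjusted p = 0.00154 by limma), and BACH1, the heme-sensing repressor of HMOX1, had 0.39 (SE 0.09, adjusted p = 0.0255 by limma). Both differences were below the FC threshold. BACH1 did not pass the FDR threshold with the methods' t-test, with the arrays aligned at their medians, or without high density replicate 1 or any 1 of the normal density cultures.

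Of 11 listed NRF2 target genes other than HMOX1, 3 were called down and 1 up, with a median log2 difference of −0.19. GCLC, a subunit of the enzyme that starts glutathione synthesis, fell by 1.06 on the log2 scale (SE 0.08, adjusted p = 2.12e-04 by limma). TXNRD1, thioredoxin reductase, fell by 0.87 (adjusted p = 5.27e-04 by limma) and NQO1, a quinone reductase, by 0.74 (adjusted p = 0.00346 by limma). The cystine transporter gene SLC7A11 rose by 1.61 (SE 0.10, adjusted p = 8.39e-05 by limma).

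Of 19 listed iron genes, measured by 20 transcript clusters, 2 were called up and 1 down. TF, the gene of the plasma iron carrier transferrin, had log2 signals of 4.84, 4.80 and 4.91 at normal density and 6.04, 6.07 and 6.30 at high density. Its log2 difference was 1.29 (SE 0.09, adjusted p = 1.30e-04 by limma). TFR2, the second transferrin receptor, had a measured log2 difference of 0.67 (adjusted p = 6.34e-04 by limma). Its normal density mean was below the background level, so that the rise was at least 1.17-fold, a bound below the FC threshold. NCOA4, the receptor that delivers ferritin to lysosomes, fell by 0.60 (adjusted p = 0.00175 by limma), a call that was lost with array weights, with a second quantile normalization, and without either normal density replicate 2 or high density replicate 1, where the log2 difference was between −0.58 and −0.54. The main transferrin receptor gene TFRC had a log2 difference of 0.05 (SE 0.07, adjusted p = 0.655 by limma), and FTH1, the ferritin heavy chain gene, of 0.27 (adjusted p = 0.0392 by limma). FTH1 did not pass the FDR threshold with the replicate block, with the arrays aligned at their medians, or without high density replicate 1 or 3 or any 1 of the normal density cultures.

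Of 14 listed heme enzymes of other pathways, 1 was called down and 1 up. The P450 aromatase gene CYP19A1 had a measured log2 difference of −2.80 (adjusted p = 4.07e-05 by limma). Its high density mean of 3.71 was below the background level, so that the signal was at least 3.70-fold lower. CYP51A1, a P450 of cholesterol synthesis, rose by 0.68 (adjusted p = 0.00304 by limma), and its log2 difference was 0.58 and not called without high density replicate 2. The median of this list was 0.15.

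The high density cultures were compared within their group. Deviations from the group mean do not enter the log2 difference, but they do enter its SE, p-value and FDR. In 7 of the 10 genes replicate 1 had the highest signal of the 3 high density cultures, as it did in 34.9% of all transcript clusters, and in 9 of the 10 replicate 2 had the lowest, against 44.1%. On the log2 scale replicate 1 exceeded the mean of the other cultures by 0.61 in HBA, by 0.49 in HBZ and by 0.34 in HBM, while the median over all transcript clusters was 0.01. The excess was 0.20 in HMOX1, 0.15 in BLVRB, 0.12 in HEBP1 and 0.10 in HBB. ALAS1 and HBQ1 did not share this, with −0.03 each. CYGB and HBG, which lay below the background level, had values of 0.59 and 1.04. Genes measured on the same arrays share these cultures and are not independent, and no test was made of these counts.

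**Figure D4:**
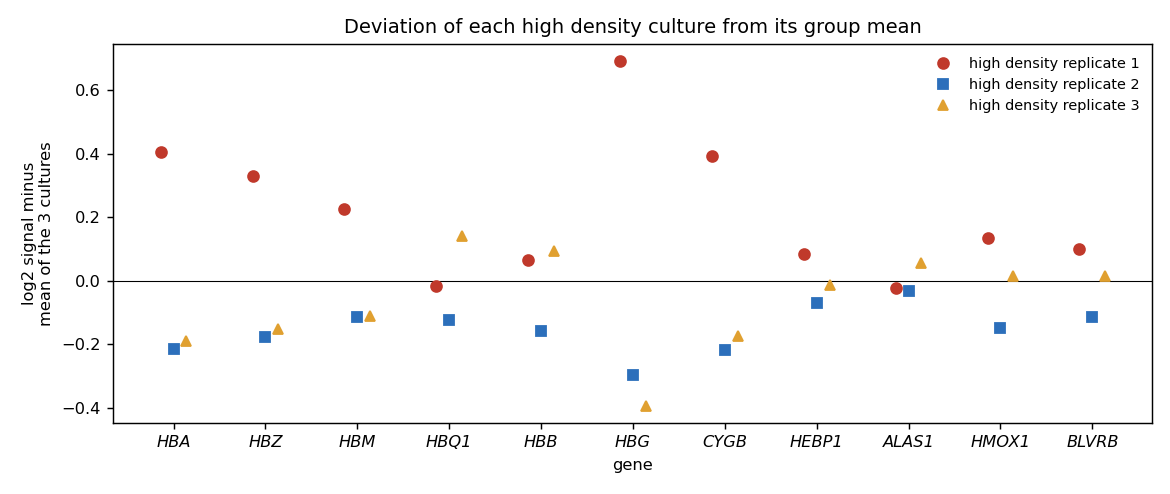
Log2 signal of each high density culture minus the mean of the 3 high density cultures (vertical axis) for the 10 genes and HBZ, with 1 symbol per replicate. Replicate 1 lies above the others in HBA, HBZ, HBM, HBG and CYGB and, by less, in HMOX1, BLVRB and HEBP1. The spread is small in ALAS1 and HEBP1.

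Transcript clusters with a pattern like that of HBA were searched among the 11165 others with a single symbol and a group mean above the background level. The distance was the root mean square over the 6 cultures between log2 signals centred on the normal density mean. The search uses the same contrast as the choice of the genes and is a description without a test. HBA had the largest rise of all transcript clusters, and this distance depends largely on the size of the rise. Genes near HBA are thus bound to be genes with large rises, and no shared regulation is read from the list. Nearest to HBA was AHSG, the fetuin A gene, at a distance of 0.45. LOXL2 (distance 1.14), KRT18 (1.16), TGM2 (1.27) and NRN1 (1.52) followed. Like HBA, 3 of these 5, AHSG, TGM2 and NRN1, had a normal density mean below the background level, so that they entered the search through the high density group and their distances rest in part on signals below that level. The rise of AHSG was at least 31.6-fold, that of TGM2 at least 13.3-fold and that of NRN1 at least 5.72-fold. The measured log2 differences of LOXL2 and KRT18, whose means were above the background level at both densities, were 4.30 and 4.29. Near HEBP1 the distances were 0.06 for P2RY1 and 0.06 for SLC16A3, 0.07 for ADAM12 and 0.07 for MADD, and 0.08 for ETNK2, with log2 differences between 1.54 and 1.67. The normal density mean of P2RY1, 4.39, was below the background level.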

How the data were processed

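RNA of 3 normal density and 3 high density GC cultures was measured on 6 arrays. The authors processed the scans in Expression Console with RMA at default settings, and the deposited table holds log2 signals per transcript cluster, background corrected, normalized and summarized. The array annotation's build is not given in the sources used here. The table has 0 columns of other samples. Groups were taken from the sample labels.

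A linear model without covariates (lmFit, then eBayes, of limma 3.58.1 under R 4.3.3) was fitted to all 26773 transcript clusters, with Benjamini-Hochberg adjustment over all of them and the methods' thresholds. Precision is limited by the number of arrays. With 3 against 3 cultures an exact permutation p cannot be below 0.1. The scripts were tested on simulated data. The members and lists were chosen with earlier results of these data known. Named genes are all members, the called genes of each list (at most 5), fixed key genes of the lists and the neighbours of the alpha cluster. Some genes of the lists of erythroid markers and heme synthesis are not reported here and are not counted in them. NGB, MB, HEBP2, SLC48A1, FLVCR1, HPX, HP, PPOX, RHAG, LDB1, RGS11 and the other uncalled genes were named after their values were seen. RefSeq (ARS-UCD2.0) gave gene order and held all 10 symbols. No sequences were printed. Alternatives were the methods' t-test (analysis of variance), other variance models, array weights, a replicate block, other scalings, a filter, a stricter FDR and single cultures left out. Plots were made in Python 3.11.15 using matplotlib 3.10.9.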

Additional observations from a re-analysis of the deposited data

How the results depend on the processing

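Over all alternatives the calls of HBA and HEBP1 were kept, and HBM was called in each of them except the filter at the background level, which removes it, so that the number of called genes among the 10 was 3, or 2 with that filter. None of the other 7 became called. Of 162 transcript clusters in the context lists 22 were called, and between 20 and 25 in the alternatives. HBG, not called in any setting, changed sign to −0.0067 with array weights and had log2 differences between −0.30 and 0.25 with single cultures left out. Other reversals concerned genes with log2 differences near 0 that were not called in any setting. With array weights PDIA2 was 0.046, LUC7L −0.011 and POLR3K −0.00076. With the arrays aligned at their medians AHSP was −0.042, ITFG3 −0.032, AXIN1 −0.030, RHBDF1 −0.012, LUC7L −0.021 and POLR3K −0.0044. With a second quantile normalization AHSP was −0.046, RGS11 −0.019 and ALAD 0.0040. With single cultures left out the ranges were −0.14 to 0.12 for AHSP, −0.13 to 0.054 for PDIA2, −0.052 to 0.085 for ITFG3, −0.022 to 0.081 for AXIN1, −0.042 to 0.12 for RGS11, −0.052 to 0.096 for RHBDF1, −0.057 to 0.065 for LUC7L, −0.011 to 0.074 for POLR3K, −0.061 to 0.0057 for ALAD and −0.047 to 0.18 for ALAS2.

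The background level was 4.92 as the 99th percentile of the reporter controls and 4.38 as the median of all signals, and 6 of the 10 genes had a group mean above it in both cases. When patterns were scaled to the change, 0 of the 5 genes nearest to HBA were the same. In a comparison chosen after seeing the data, 0 of the 5 nearest to HEBP1 were the same. That measure ignores both the size and the direction of the change. By it BAX and GLUL, with log2 differences of −0.46 and −0.56, were among the 5 nearest to HBA. Signals below the background level limit HBM, HBB, HBG and CYGB, whose differences are not measured above it.

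The cultures share replicate numbers across densities. Correlations of same-numbered deviations from the group means over all transcript clusters were 0.05, −0.05 and −0.04 for replicates 1, 2 and 3. Among transcript clusters above the background level they were 0.10, −0.19 and −0.14. With 3 cultures per group these values cannot decide whether the numbers pair the cultures. With the replicate block 2020 transcript clusters were called, against 2005 without it. Among the 10 genes 3 were called and in the context lists 22, as without the block.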
